A study of Homo sapiens with 3 samples.

Results

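The OAS and MX genes encode antiviral proteins that interferon induces. Their RNA was measured in single-cell clones of 5637, an established human bladder cancer line, and of its gemcitabine-resistant derivative. Members were the genes of the deposited table with the symbols OAS1, OAS2, OAS3, OASL, MX1 and MX2, which are 6 of its 29960 genes. They were singled out with their difference between resistant and parental cells already known, so their values for that contrast are given as a description, with no test. The comparison addresses which antiviral genes differ in RNA level between cells that tolerate gemcitabine and the cells they came from.

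Of the 3 labelled libraries, 1 came from the parental line (5637P, labelled wild type) and 2 from the resistant line (5637GR). All were labelled as untreated when harvested, and all cells were grown in RPMI medium with 10% fetal bovine serum. Both groups share the 5637 background, and neither carries an engineered gene. The resistant cells had earlier been exposed to gemcitabine, a deoxycytidine analogue that blocks DNA synthesis. The labels call that exposure acute, and the study's methods call it continuous and stepwise with time for recovery. By the methods each library is a clone grown from a single cell, so a group stands for a few clones of 1 line. RNA was selected by its poly(A) tail. Reads on genes came to 14475531 in 5637P clone 1, 15836788 in 5637GR clone 1 and 17461941 in 5637GR clone 2. Levels in CPM below are reads scaled to these library totals after TMM normalization, and the 95% intervals beside them are exact Poisson or, for ratios, exact binomial intervals that cover counting error only. The table also gives the authors' mean normalized count of each group, which covers further clones whose libraries carry no label here and is given without an SD. Both resistant clones are compared with the same parental library, so their ratios are not independent of each other. In bulk RNA, fewer cells with a transcript and less of it per cell cannot be told apart.

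Interferons are secreted when cells sense foreign nucleic acid. Type I and type III interferons signal through JAK kinases to a complex that includes STAT2 and IRF9 and binds a short element, the interferon-stimulated response element, near the start of many genes. OAS1, OAS2 and OAS3 are enzymes that bind double-stranded RNA and then make 2-5A, a short chain of adenylates that acts as a second messenger against viral RNA. OASL is related to them but has no such enzyme activity, and is known for enhancing RNA sensing by RIG-I. MX1 and MX2 are dynamin-like GTPases. MX1 is known for blocking influenza and other RNA viruses in the cytoplasm, and MX2 for acting at the nuclear envelope against HIV.

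The promoters are shown first because the members are known as targets of that element. RefSeq promoters of the GRCh38.p14 build, each from 250 bases before to 50 bases after a transcription start, were given for 3 of the 6 members: OAS1 and OAS3 with 1 start each and MX1 with 3. Capitals mark letters that match the core of that element on either strand, in a long form (GAAA, any 2 bases, GAAA) or a short form (GAAANGAAA, with 1 base between). The short form was added after the sequences had been read. All stretches are written 5′ to 3′ on the plus strand, and position 1 is the first transcribed base.
OAS1, chr12:112906902-112906961, bases -60 to -1: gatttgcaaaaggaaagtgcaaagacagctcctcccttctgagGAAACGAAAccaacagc
OAS3, chr12:112938314-112938344, bases -160 to -130: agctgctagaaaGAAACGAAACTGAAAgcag
OAS3, chr12:112938444-112938473, bases -30 to -1: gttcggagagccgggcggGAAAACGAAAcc
MX1 start 1, chr21:41420558-41420587, bases 1 to 30: cgagcaGAAATGAAACCGAAActgaattgt
MX1 start 2, chr21:41426109-41426189, bases -130 to -50: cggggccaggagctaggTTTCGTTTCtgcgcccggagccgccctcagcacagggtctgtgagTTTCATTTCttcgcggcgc
OAS1 held the short form once, from base -17 to base -9, and not the long one. OAS3 held the long form at 2 places, from -143 to -134 and from -12 to -3. The short form overlaps the first of these, from -148 to -140. In MX1 the first start had both forms overlapping just inside the transcript, and the short form once more on the minus strand before it. The second start had the short form at 2 places on the minus strand, and the third the long form once, also on the minus strand. Of the 35116 RefSeq promoters of this length, 3.57% held the long form and 3.12% the short one. The same letters stand in the promoters of ISG15 and HERC5, interferon-stimulated genes whose group means were level and higher in the resistant cells. Both were chosen after their values were seen, and promoters of listed genes with lower means are not shown.
ISG15, chr1:1013377-1013406, bases -120 to -91: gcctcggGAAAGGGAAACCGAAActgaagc
HERC5, chr4:88456989-88457054, bases -130 to -65: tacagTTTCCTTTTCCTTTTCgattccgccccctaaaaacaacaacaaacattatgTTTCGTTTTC
Of 46 other interferon-stimulated genes with a promoter in that table, 32 held the long form and 16 the short one. A gene was counted if any of its promoters held the form, whereas the shares above are of single promoters. Letters of the site that STAT dimers bind, TTC and GAA with 3 or 4 bases between, were in 7.66% and 6.44% of all promoters. OAS1 held both, the second of them overlapping its short form. The third start of MX1 held the form with 3 bases, overlapping its long form. GGGCGG, a motif unrelated to interferon, was in 45.0%, and OAS3 held it once, at base -18 just before its second long form. The first and second starts of MX1 held it at 2 places each. A match of letters is a description and not evidence of binding.

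All 6 members had lower values in the resistant group, by the authors' means and in each of the 2 labelled resistant clones. The log2 ratio of the means, taken after adding 1 to each, had a median of -1.75, with OAS1 at -3.54 as the lowest and OAS3, 2.00-fold lower in the resistant group, as the highest. Over the 14630 genes whose group means averaged 10 or more normalized counts, the median was 0.01. Of the 5 members above that minimum, all 5 were at least 2-fold lower, and of all genes 3.15% were. In CPM, the 5 members that passed the filter on low counts were below the parental library in both resistant clones, as were 34.5% of all genes tested. With 1 CPM added, 4 of these 5 were at least 2-fold lower in both, against 2.06% of all genes. The ratios of low genes depend on the amount added. With 0.1 CPM in place of 1, the log2 ratio over both clones went from -2.65 to -3.60 for MX2, from -0.30 to -0.60 for OAS2 and from -0.24 to -1.04 for OASL. These shares are background only, since the members were chosen on this contrast. OASL failed both filters.

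OAS1 makes short 2-5A chains and had the largest difference of the 6 by the authors' means. The gene (ENSG00000089127) lies on chr12:113344582-113369990 on the plus strand of hg19. Its 713 reads in the parental library stood against 65 and 61 in resistant clones 1 and 2. In CPM these are 50.6 (46.9 to 54.4), 3.97 (3.07 to 5.07) and 3.51 (2.69 to 4.51). Both resistant clones lay far below the parental library, which is a description and not a test, since the members were chosen on this contrast. Pooled over both clones, the parental library was 13.5-fold higher (11.2 to 16.5). That interval leaves out the spread between clones. The authors' means, 517.7 and 43.7 normalized counts, differed by 11.8-fold.

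OAS3 is the largest of the family, with a tandem of OAS units, and is known as the main source of 2-5A in human cells. It lies next to OAS1 (ENSG00000111331, chr12:113376157-113411054, plus strand). It had the most reads of any member, 3969 in the parental library against 2241 and 1834. The levels were 281.6 CPM (272.9 to 290.5) in the parental library, 137.0 (131.4 to 142.8) in resistant clone 1 and 105.6 (100.8 to 110.6) in clone 2. Both clones lay well under the parental library and yet kept over 100 CPM, so OAS3 had the highest level in every library and the smallest difference of means. The means were 3369 and 1684 normalized counts, which is 2.00-fold and thus at the 2-fold limit used above.

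OAS2, which makes longer 2-5A chains, lies beyond OAS3 (ENSG00000111335, chr12:113416200-113449528, plus strand) and was scarcely detected. It had 14 reads in the parental library, 11 in resistant clone 1 and 10 in clone 2. These are 0.993 CPM (0.543 to 1.67), 0.673 (0.336 to 1.20) and 0.576 (0.276 to 1.06), and the intervals overlap. The parental level over that of the resistant clones was 1.60 (0.750 to 3.29), so a difference was not detectable at this depth. The authors' means, 26.6 and 6.44 normalized counts, differ by 4.12-fold, which lies above the upper bound of 3.29 from the labelled libraries.

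OASL stands apart from the other OAS genes on chr12:121458095-121477045 (ENSG00000135114, minus strand). It had 4 reads in the parental library, 2 in resistant clone 1 and 1 in clone 2. The corresponding 0.284 CPM (0.0773 to 0.727), 0.122 (0.0148 to 0.442) and 0.0576 (0.00146 to 0.321) cannot be told apart. Both resistant clones were at or below a floor of 3 counts. The authors' means were 5.88 and 1.26 normalized counts.

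MX1 and MX2 are neighbours on the long arm of chromosome 21. MX2 (ENSG00000183486, chr21:42733870-42781317, plus strand) had 137 reads in the parental library and 12 in each resistant clone. Its level was 9.72 CPM (8.16 to 11.5) in the parental library, 0.734 (0.379 to 1.28) in clone 1 and 0.691 (0.357 to 1.21) in clone 2. Both clones lay under the parental library. The parental library was 13.7-fold higher, with a lower bound of 8.81 for counting error alone. The authors' means, 127.0 and 18.3 normalized counts, differed by 6.96-fold, a value below that bound.

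MX1 (ENSG00000157601, chr21:42792231-42831141, plus strand) had 96 reads in the parental library against 38 and 41. Its levels were 6.81 CPM (5.52 to 8.32), 2.32 (1.64 to 3.19) and 2.36 (1.69 to 3.20). Both clones again lay under the parental library, but the difference was smaller than for MX2. The parental level was 2.91-fold higher (2.14 to 3.97 for counting error alone), and the means of 93.3 and 30.5 normalized counts differed by 3.06-fold.

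**Figure D1:**
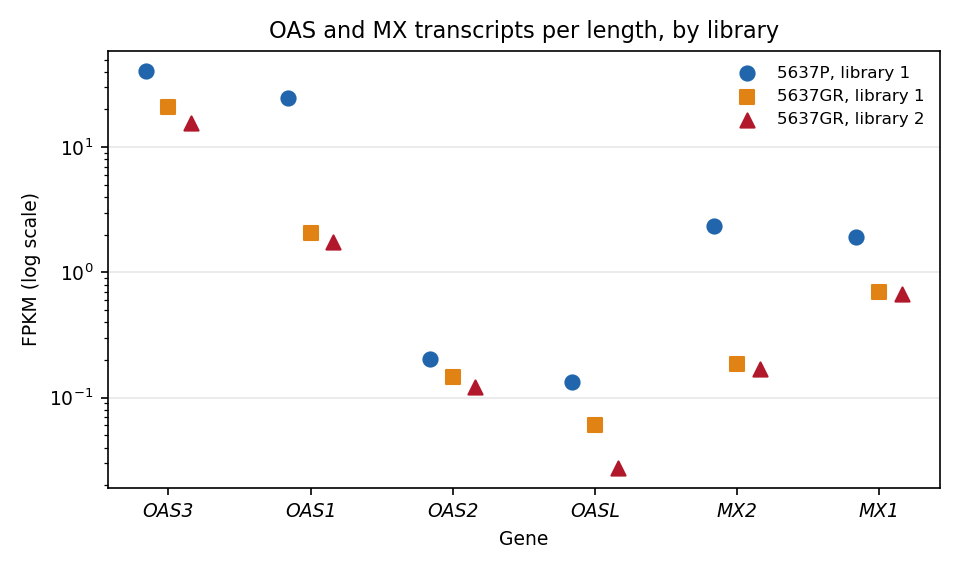
Levels of the 6 members in FPKM (reads scaled to gene length and library total, log axis) in the 3 labelled libraries, 1 point per library and no error bars. OAS1 (24.8 against 2.06 and 1.76 FPKM) and MX2 (2.33 against 0.186 and 0.169) show the widest gaps between the parental and the resistant points, and OAS3 is highest in every library.

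Levels of different genes were compared per length, in FPKM (reads scaled to gene length and library total), as the authors deposited them. In the parental library OAS3 stood at 40.8 FPKM and OAS1 at 24.8, followed by MX2 at 2.33, MX1 at 1.91, OAS2 at 0.204 and OASL at 0.133. MX2 and MX1 in this order are neighbours whose counting intervals overlap, as do OAS2 and OASL. Ranked among genes with a read in the parental library, OAS3 was at the 92.4 percentile and OAS1 at the 86.9, MX2 and MX1 were near the middle at 51.0 and 48.5, and OAS2 and OASL were low at 22.4 and 16.5. In the resistant clones OAS3 held 21.1 and 15.6 FPKM and remained first. OAS1 held 2.06 and 1.76 FPKM, at the 49.6 and 51.8 percentiles, so it moved from the upper part of the expressed genes to the middle. MX1 held 0.691 and 0.677 FPKM and MX2 0.186 and 0.169, so MX1 lay above MX2 in both clones. Since their parental order was within counting error, a turn of the order is not shown. OAS2 held 0.147 and 0.121 FPKM, within the counting error of MX2, and OASL 0.0606 and 0.0275.

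The make-up of both families differed with these levels. The OAS genes summed to 65.9 FPKM in the parental library and to 23.3 and 17.5 in the resistant clones. OAS1 gave 37.6% of that sum in the parental library but 8.84% and 10.0% in the clones, and OAS3 gave 61.9% against 90.3% and 89.1%. The level of OAS3 over OAS1 was thus 1.65 in parental cells and 10.2 and 8.90 in the resistant clones. For the MX pair, with sums of 4.24, 0.878 and 0.846 FPKM, MX1 gave 45.1% in the parental library and 78.8% and 80.01% in the clones. The level of MX2 over MX1 was 1.22, 0.270 and 0.250 in that order.

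The table gives 1 antisense gene across the OAS cluster, RP1-71H24.1 (chr12:113345433-113455556, minus strand). It had 1 read in the parental library and 0 in both resistant clones. Whether the counting used strand is not given in the sources used here. Shared sequence between members is also limited. Among stretches of 50 bases in the GENCODE 29 transcripts, 1.07% of those of OAS1 and 0.615% of those of OAS3 occur in any other gene, none of them in another member. OAS2 and OASL shared none. The share was highest for MX1, at 1.94% (173 of 8929), and 0.361% for MX2 (48 of 13299), and 19 of these were common to the MX pair.

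The resistant clones were then set against each other. The members were chosen with earlier results of these libraries known, so this contrast is a description too. With 1 library per clone this compares libraries, not conditions. The level of clone 2 over clone 1 was 0.884 (0.613 to 1.27) for OAS1, 1.02 (0.638 to 1.62) for MX1 and 0.942 (0.387 to 2.29) for MX2. OAS2 gave 0.856 (0.326 to 2.22), and OASL, with 3 reads in all, 0.471 (0.00798 to 9.05). These 5 intervals include 1. OAS3, the deepest counted, gave 0.771 (0.724 to 0.820) and so was lower in clone 2 beyond counting error. Among all genes tested, 59.7% had an interval that excludes 1, against 1 of the 5 members tested, and the intervals of the low members are wide. For MX2, with 12 reads in each clone, differences of over 2-fold remain within the interval, so like levels are not shown.

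**Figure D2:**
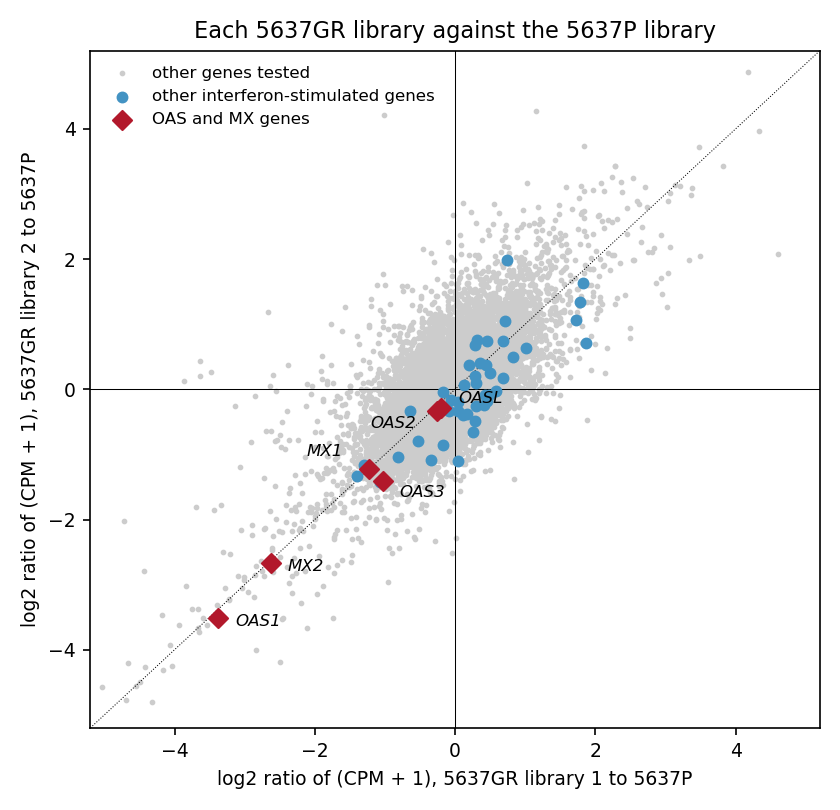
Log2 ratio of CPM + 1 over the parental library in 5637GR clone 1 (x axis) and clone 2 (y axis), with all tested genes in grey, other interferon-stimulated genes in blue and the members as red diamonds. OAS1 at -3.37 and -3.52 and MX2 at -2.63 and -2.66 lie far down the diagonal, OAS2 at -0.25 and -0.34 lies near the origin, and the 8 points beyond the axes are not drawn.

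The rest of the interferon pathway was taken from a list of 43 genes, of which 41 were in the table and 37 passed the filter on low counts. By edgeR's quasi-likelihood test with Benjamini-Hochberg adjustment, which takes the lone parental library to vary as the resistant pair does, 0 of the 37 were called at an adjusted p of 0.05, and DESeq2 also called 0. At an unadjusted p under 0.05 edgeR gave 2 lower and 4 higher, beside 759 lower and 758 higher of all genes. Over all 15643 genes it called 0.582% lower and 0.294% higher. That lean to lower calls (91 against 46) depends on the setting, with 124 lower and 127 higher by DESeq2, 261 and 273 by edgeR without the filter on low counts, and 139 and 96 with RLE scaling. The 36 pathway genes with a mean of at least 10 split evenly, with 18 lower and 18 higher and a median log2 ratio of means of -0.02, against 0.01 for all genes. Genes of this list and of the next that passed no test, other than the pathway genes the rule names, were chosen after their values were seen.

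Of the ligands, interferon beta (IFNB1) had 0, 0 and 1 read in the parental library and resistant clones 1 and 2. Interferon gamma (IFNG) had no read in any labelled library, and a count of 0 allows up to 3. Its resistant group mean, which covers further clones, was 0.783 normalized counts. IFNE, a type I interferon of epithelia, was the 1 ligand tested, with 25, 9 and 15 reads (edgeR adjusted p = 0.676). The receptor chains of type I interferon, IFNAR1 and IFNAR2, had log2 ratios of means of 0.22 and -0.31 (edgeR adjusted p = 0.940 and 0.875). The 6 receptors of the list had a median of 0.15.

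Of the factors that act at the response element, STAT2 and IRF9 had reads in all libraries. STAT2 had 71.0, 66.9 and 60.4 CPM in the parental library and resistant clones 1 and 2 (edgeR adjusted p = 0.959). IRF9, its DNA-binding partner, was low, with 17, 12 and 19 reads (edgeR adjusted p = 0.952). IRF7, itself induced by interferon, had 28.2, 20.7 and 21.1 CPM and a log2 ratio of means of -0.36 (edgeR adjusted p = 0.820). In none of these 3 did the difference pass the test. JAK2, a kinase of the interferon gamma receptor, had 262 reads against 151 and 171 (edgeR adjusted p = 0.460, unadjusted p = 0.0363). The 11 kinases and factors had a median of -0.05, with 6 lower and 5 higher.

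Among partners of the OAS enzymes, PDE12 degrades 2-5A, and ABCE1 is an ATP-binding protein also known for recycling ribosomes. PDE12 stood at 25.8 CPM against 42.5 and 44.7, and ABCE1 at 51.9 against 65.0 and 58.1, neither of which passed (edgeR adjusted p = 0.559 and 0.924).

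Of the 5 inhibitors, 3 had higher and 2 lower means in the resistant group. USP18, which removes ISG15 and dampens the type I receptor, had 55 reads in the parental library and 214 and 204 in the resistant clones, or 3.90, 13.1 and 11.7 CPM. SOCS3, a feedback inhibitor of JAK kinases, had 249 reads against 778 and 756. Both were higher in each clone, with log2 ratios of means of 1.15 and 1.00, but neither passed adjustment (edgeR adjusted p = 0.215 and 0.195, unadjusted p = 0.00583 and 0.00485). IRF5, a factor of the interferon response, had 63 reads against 256 and 219 (edgeR adjusted p = 0.210, unadjusted p = 0.00558). TRIM21, an antibody receptor that also targets interferon factors, split the clones, with 245, 134 and 956 reads. SOCS1, another feedback inhibitor of JAK kinases, and PIAS1, an inhibitor of STAT binding, had log2 ratios of means of -0.34 and -0.09. Among the sensors DDX58, which encodes RIG-I, had 36.4 CPM against 18.9 and 15.0 and a log2 ratio of means of -0.96 (edgeR adjusted p = 0.311, unadjusted p = 0.0125). The values of DDX58 lay in the direction of the members, and those of USP18 in the opposite direction. TICAM1, an adaptor of the sensor TLR3, had 404 reads against 654 and 1797 (edgeR adjusted p = 0.452, unadjusted p = 0.0344). The 10 sensors and adaptors with enough counts had a median log2 ratio of means of -0.20, and medians of CPM ratios of 0.06 and 0.01 in clones 1 and 2. The 5 inhibitors had a median of 0.94, which is the value of TRIM21, and medians of 0.14 and 1.25 in the clones.

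**Figure D3:**
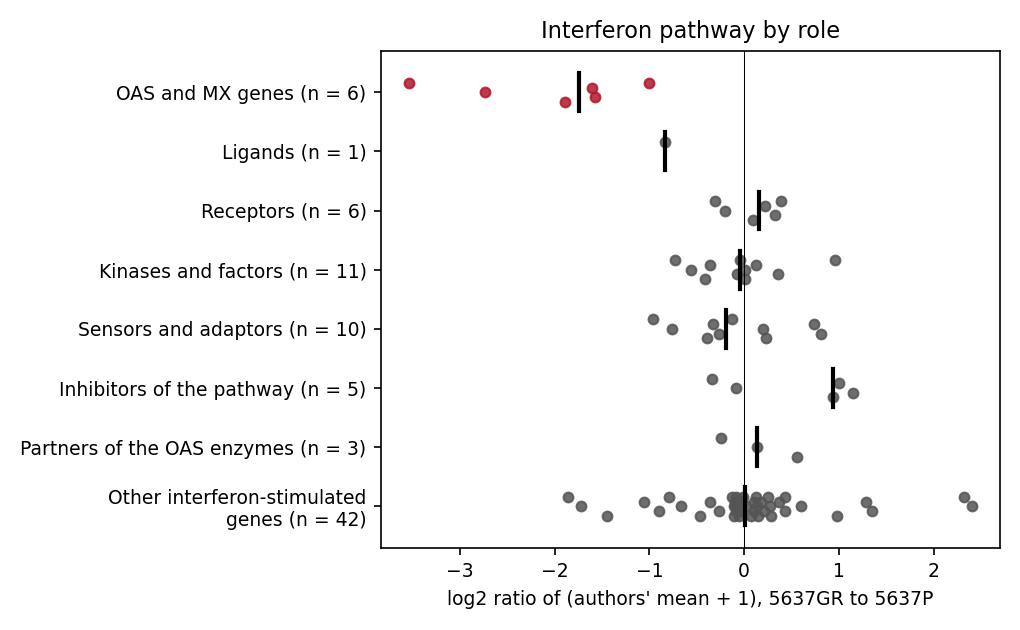
Resistant over parental ratio (log2, x axis) of the authors' group means + 1 for the 6 members and for the pathway and other interferon-stimulated genes by role, 1 point per gene (outside the members, those with a mean of at least 10) and a bar at each median. The members have a median of -1.75, the 1 ligand lies at -0.84, and every other group has points on both sides of 0.

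The other interferon-stimulated genes, a list of 50, were all in the table, and 44 were tested. edgeR called 0 of them at an adjusted p of 0.05. At an unadjusted p under 0.05 it gave 4 lower and 6 higher, beside 759 lower and 758 higher of all 15643 genes. DESeq2 called 1, HERC5, as higher (DESeq2 adjusted p = 0.0468). Of the 42 with a mean of at least 10, 21 had a lower and 21 a higher mean, with 4 at least 2-fold lower and 4 at least 2-fold higher. The shares of all genes were 3.15% and 3.21%. In the labelled clones 11 of 44 were below the parental library in both and 20 of 44 above it in both, beside 34.5% and 35.2% of all genes.

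The 4 at least 2-fold lower were IFITM2, IFITM3, ISG20 and UBE2L6. IFITM2 and IFITM3 are membrane proteins that block virus entry. IFITM3 had 37.3 CPM in the parental library against 14.6 and 16.0 (edgeR adjusted p = 0.194), and IFITM2 had 3.41 against 1.10 and 0.633 (edgeR adjusted p = 0.346). ISG20, an RNA exonuclease, had 6.17 CPM against 1.71 and 1.84 (edgeR adjusted p = 0.258). UBE2L6, the conjugating enzyme for ISG15, had 16.6 CPM against 9.05 and 7.54 (edgeR adjusted p = 0.459). In each, both clones lay below the parental library, as for the members, without passing the test.

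The 4 at least 2-fold higher were HERC5, SAMD9L, TRIM22 and IFI44L. HERC5, the ligase for ISG15, had 51 reads in the parental library against 252 and 231 (edgeR adjusted p = 0.122). SAMD9L, a restriction factor for poxviruses, had 47 against 227 and 174 (edgeR adjusted p = 0.192). TRIM22 had 15 reads against 40 and 125, and IFI44L had 12 against 84 and 50 (edgeR adjusted p = 0.389 and 0.303). ISG15, a ubiquitin-like protein, had 47.9 CPM against 57.1 and 29.9, with means of 629 and 624 normalized counts. ADAR, which edits double-stranded RNA, and EIF2AK2, the kinase PKR, had log2 ratios of means of -0.10 and -0.08. IFIT1, RSAD2 and BST2, often high after interferon, had 15 reads or fewer in every library.

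**Figure D4:**
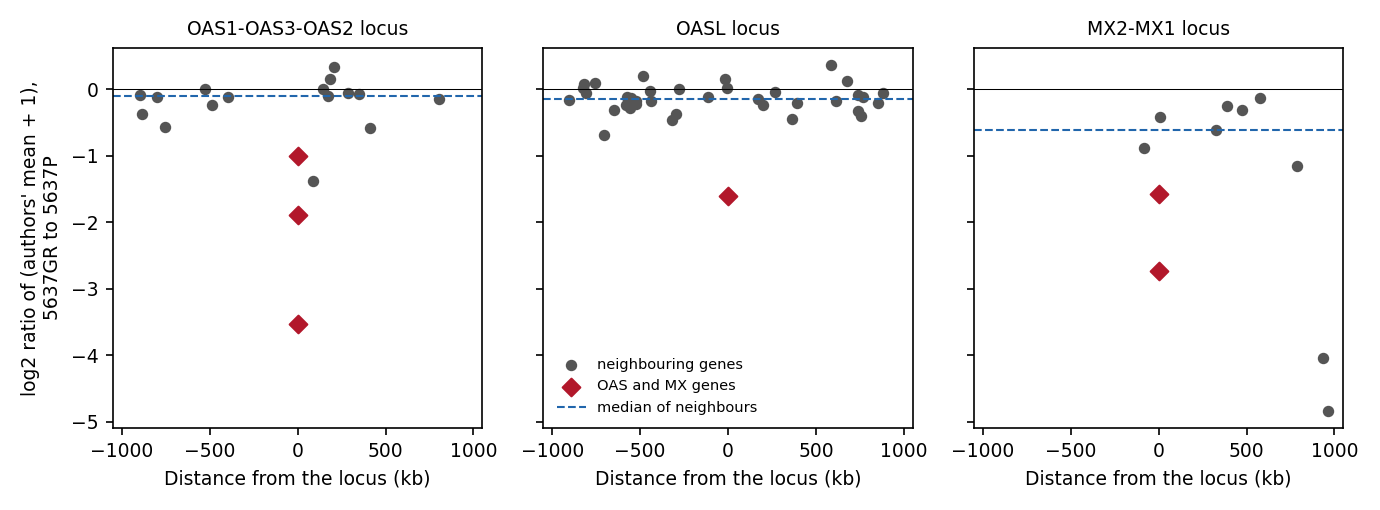
Log2 ratio of the authors' group means for genes with a mean of at least 10 within 1 Mb of the 3 member loci, against distance from the locus, with the members drawn at 0 distance. Genes around OAS1 to OAS2 and around OASL centre near 0, with medians of -0.11 and -0.14, and all 9 around the MX pair lie below 0.

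Genes around each locus are described next. Around the cluster OAS1 to OAS2, 16 genes within 1 Mb had a median log2 ratio of means of -0.11, with 13 below 0. The nearest expressed neighbours were PTPN11, a phosphatase 397 kb before it, at -0.12, and RASAL1, a RAS-GTPase activator 87.1 kb after it, at -1.38. RASAL1 had 24, 31 and 16 reads, so the labelled clones lay on either side of the parental library. Around OASL, 36 genes had a median of -0.14, and the nearest expressed gene after it, the ATP-gated channel P2RX4, stood at -0.15. Over the whole of chromosome 12, 732 genes had a median of -0.26. edgeR called 0 of the 16 and 0 of the 37 tested around these loci, and DESeq2 also called 0 of each. At an unadjusted p under 0.05 edgeR gave 2 and 0, beside 1517 of all 15643 genes.

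Around the MX pair, 9 genes had a median of -0.61, and all 9 were below 0, beside a median of -0.27 over 148 genes of chromosome 21. BACE2, a protease 85.3 kb before MX2, had 58.0 CPM in the parental library against 28.9 and 35.1, with a log2 ratio of means of -0.88 (edgeR adjusted p = 0.449). TMPRSS2, a serine protease 5.34 kb after MX1, had 35.5 CPM against 12.8 and 40.5, so clone 2 lay above the parental library where both MX genes were low. Of 12 genes tested there, edgeR called 1 as lower, TMPRSS3, with 88 reads in the parental library and 0 in both clones (edgeR adjusted p = 0.00589). At an unadjusted p under 0.05 edgeR gave 5 of the 12, beside 1517 of all 15643 genes, and DESeq2 called 1 of the 12. Among the 9 genes, TMPRSS3 and TFF2 alone lay below MX2 at -2.73 and MX1 at -1.58. TFF1, whose means averaged under 10 normalized counts, lay at -2.94 with 13, 1 and 1 reads.

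Genes outside the family with the most similar pattern were ranked by the Euclidean distance of 3 values (the log2 ratios in the 2 clones and of the means) from the members' median of -1.13, -1.31 and -1.75. Over 13893 genes that averaged 1 CPM or more, the 10 nearest were KBTBD11 (0.110), RP11-112J3.16 (0.126), RHBDL2 (0.148), IFITM2 (0.179), MRAS (0.225), ZNF660 (0.225), CTC-301O7.4 (0.236), TCN2 (0.243), ISG20 (0.272) and RP11-211G23.2 (0.315). IFITM2 and ISG20 are also on the list of interferon-stimulated genes. The distance rests on 3 libraries that share the parental one, and says nothing of common control.

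The identity of the cells was checked against markers. All 8 urothelial and epithelial markers had reads in every library, with sums of 3844, 2804 and 2008 CPM, and KRT8 was the most abundant. KRT5, a keratin of basal cells, was lower in the resistant clones, with 3829 reads against 160 and 240 (edgeR adjusted p = 0.0006). The authors' means for KRT5, which cover further clones, were 11544 and 2047 normalized counts. The difference by these means was smaller, with a log2 ratio of -2.49 against -4.43 for CPM in the labelled libraries. KRT17, also a basal keratin, had 2759 reads against 281 and 926, which DESeq2 called (DESeq2 adjusted p = 0.00219) and edgeR did not (edgeR adjusted p = 0.0783). Their part in the values of the members was not tested. Leukocytes are a rich source of OAS and MX transcripts, and 8 blood cell markers, HBB of red cells among them, summed to 0.922, 2.08 and 1.50 CPM, with 3, 2 and 3 of them at 0 and PTPRC at 0.284 CPM in the parental library. The 4 fibroblast and endothelial markers in the table summed to 172.7, 155.1 and 146.1 CPM, nearly all of it from COL1A1 and COL1A2. COL1A1 was the most abundant in the parental library at 112.9. PDGFRB had only 2, 4 and 2 reads and VWF 6, 3 and 14. None was at 0, and the part of these markers was not tested.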

How the data were processed

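The deposited table holds raw read counts per gene and library, and FPKM values that the authors computed from them per gene length. Its group signal is the authors' mean of normalized counts over the clones of a group. Per the labels' processing notes the tools and build were CASAVA 1.8 and hg19, and the aligner and annotation are not given in the sources used here. The authors' log2 fold changes and p-values were not used, nor were 6 columns of libraries without a label.

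The members and lists were chosen with earlier results of these data known. Genes named were the members, list genes that passed the test, set pathway genes, the nearest expressed neighbours and the 10 genes of most similar pattern, and any others were chosen after their values were seen. Counts that passed filterByExpr (15643 genes) were fitted with edgeR 4.0.16 (TMM factors 0.974, 1.03 and 0.994; quasi-likelihood test, Benjamini-Hochberg adjustment, adjusted p of 0.05), with DESeq2 1.42.0 as an alternative, in R 4.3.3. The p-values rest on the spread between the 2 resistant clones, combined with that of all genes. No spread among parental clones enters them. Log2 ratios had 1 normalized count or 1 CPM added. Symbols were matched as the table gives them, and of the lists IFNK, IFNL3 and PECAM1 were not matched. Proteins were not compared here. Some genes that this rule names are not reported here.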

Additional observations from a re-analysis of the deposited data

How the results depend on the processing

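Across all genes edgeR called 137 (46 higher and 91 lower, 33.6% higher). With RLE scaling it called 235 (96 higher, 40.9%), and without the filter on low counts 534 (273 higher, 51.1%). DESeq2 called 251 (127 higher, 50.6%), and an unadjusted p under 0.05 gave 1517. All 137 were among the calls with RLE scaling and without the filter, and 133 among those of DESeq2. The cause was not tested. Of the other interferon-stimulated genes DESeq2 called 1 (HERC5) and edgeR without the filter 2 (GBP1 and HERC5), against 0, while the pathway list had 0 calls in each. The members' median log2 ratio of CPM, -1.22, became -1.36 with 0.1 CPM added, and ranged from -1.31 to -1.13 when either resistant clone was left out. Each member stayed below the parental library under every alternative tried for that contrast. The log2 ratio of resistant clone 2 to clone 1 for MX1, 0.02, became -0.03 with the library total as the scale. With 0.1 CPM added, MX2 moved to -3.60, OAS1 to -3.72, MX1 to -1.50, OAS2 to -0.60 and OASL to -1.04. With 5 normalized counts added to the means, OASL went from -1.60 to -0.80 and OAS2 from -1.89 to -1.46.

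Leaving out a resistant clone leaves no residual degrees of freedom, so calls could not be recomputed. No paired analysis was possible because the groups share 1 replicate number only. Depth limits OAS2 and OASL, whose parental over resistant ratios have intervals that include 1, of 0.750 to 3.29 and 0.540 to 21.8.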

Other observations

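Of the 9 genes around the MX pair with a mean of at least 10, 2 that lie beyond MX1 toward the telomere stood lower than either MX gene, and they and the other genes named here were singled out after their values were seen. TFF2, a secreted trefoil peptide of mucous epithelia, lies 935 kb from the pair and had 27 reads in 5637P clone 1 against 0 and 3 in 5637GR clones 1 and 2 (edgeR adjusted p = 0.181). TMPRSS3, a membrane serine protease 961 kb away, had 88 reads against 0 and 0. RIPK4, a kinase of keratinocyte differentiation 328 kb away, had 3416 reads against 1675 and 2141 (edgeR adjusted p = 0.284), so it lay below the parental library in both clones and still kept over 100 CPM. GBP1, an interferon-induced GTPase, had 0 reads in the parental library against 43 and 11 (edgeR adjusted p = 0.195).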
